A study of Homo sapiens with 6 samples.

Results

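The genes described here encode the SR proteins, the heterogeneous nuclear ribonucleoproteins (hnRNPs) and the proteins named for the small nuclear ribonucleoproteins (snRNPs) of the spliceosome. They were chosen by symbol, as SRSF followed by digits, or as any symbol that starts with HNRNP or SNRP. Pseudogene-like symbols (P and digits at the end) and hyphenated symbols were left out. Earlier results of these data were known when the genes were chosen. Of the 59653 rows of the count table, 230 symbols started in this way, 181 were left out, and 49 were kept, 12 SRSF, 25 HNRNP and 12 SNRP genes. A minimum of 5 normalized counts, reached in 3 or more libraries, was met by 44 of them (11, 21 and 12), and these were tested. SRSF12, HNRNPCL1 and HNRNPCL2 did not pass this filter, with no library above 4 normalized counts, and HNRNPCL3 and HNRNPCL4 were listed at 0 in every library.

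SK-OV3, an established human ovarian cancer cell line (written SKOV3 in the labels, with a wildtype genotype), was transfected with a pool of siRNAs against the long non-coding RNA PVT1 (siPVT1) or with a non-targeting siRNA pool (siControl). RNA was taken 48 h later from 3 samples of each group, and by the labels the groups differ in the siRNA pool alone. PVT1 is encoded beside the MYC oncogene, and the study asked which transcripts depend on it in ovarian cancer cells. A pool gives no value for each siRNA, 1 cell line was used, and the labels do not say that replicates were separate cultures, so p-values measure only the spread between these samples.

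SR proteins bind exonic enhancers through RNA recognition motifs and bring in the splicing machinery through domains rich in arginine and serine. HnRNPs coat nascent transcripts and often act in the opposite direction at the same exons. The snRNPs are the RNA and protein particles that recognise splice sites, and most of them carry a ring of Sm proteins around their RNA. Many SR protein and hnRNP genes limit their own level through a poison exon, whose inclusion sends the transcript to nonsense-mediated decay (NMD).

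In siPVT1, SR protein mRNAs were mostly lower, snRNP protein mRNAs were split, and hnRNP mRNAs moved least. Of the 44 members tested, 12 were higher and 15 were lower in siPVT1 at an adjusted p under 0.05 (quasi-likelihood test of edgeR, adjusted over 19008 genes by the Benjamini-Hochberg method). These counts stand beside 29.5% higher and 28.4% lower among all genes tested, 57.9% in either direction. By family, 3 SRSF genes were higher and 6 lower of 11, 4 HNRNP genes were higher and 7 lower of 21, and 5 SNRP genes were higher and 2 lower of 12. Scaling libraries by their total count instead of by TMM lowers the median of all genes by 0.15 on the log2 scale. With it, 7 members were higher and 24 lower, beside 11356 of 19008 genes at this threshold in either direction. Shares of all genes by direction are not given for this scaling, so the member counts by direction have no such comparison. No member reached the study's second threshold of a 2-fold change with edgeR, against 21.5% of all genes (11.8% higher and 9.64% lower), while 28 of 44 had an unadjusted p under 0.05, as had 11873 of all 19008 genes, and DESeq2 also placed no member there.

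One library, siPVT1 replicate 3, stood apart from the rest of its group. By a chi-square statistic over genes above a minimum count, this library differed from siPVT1 replicates 1 and 2 by 45.3 and 19.6 per degree of freedom. The value was 8.62 between those 2 and at most 5.67 between siControl libraries. Such a statistic grows with depth. Total counts ran from 28383171 to 35059576, with the highest total in siPVT1 replicate 3. PVT1 itself was at 3289, 4079.7 and 3368 normalized counts in siControl replicates 1, 2 and 3 and at 2344, 2105 and 2057 in siPVT1, a log2 fold change of -0.72, so replicate 3 did not have more PVT1 than the others. Summed over 7 epithelial and lineage markers, the level was 26417 to 29570 normalized counts in siControl and 32715 to 36196 in siPVT1, with none at 0, although KRT7 and ERBB2 were lower while KRT8, KRT18, KRT19 and PAX8 were higher. Summed over 9 markers of fibroblasts, leukocytes and endothelium, it was 2720 to 2777 in siControl and 9662 to 12256 in siPVT1, mostly CDH5, while CD3E was at 0 in every library and 4 of the 9, CD3E included, never passed 3 counts. Their part in the results was not tested, and in bulk RNA fewer cells of a kind and less RNA per cell cannot be told apart. Without siPVT1 replicate 3, 11 members were higher and 25 were lower. In that setting 11944 of all 18556 genes tested had an adjusted p under 0.05 (edgeR) in either direction.

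Promoter sequences of 45 members were found in RefSeq (GRCh38.p14), each running from 250 bases before to 50 bases after the annotated start. The letters CCGGAAG, the core bound by ETS factors, were searched on both strands and stood in 7 of 11 SNRP promoters, 3 of 23 HNRNP promoters and 2 of 11 SRSF promoters, against 10.7% of all 27305 promoters. Of these 12 carriers, 5 were higher in siPVT1 (SNRPA1, SNRPD2, SNRPG, SRSF4 and SRSF5), 3 were lower (SNRPB2, SNRPC and HNRNPLL) and 4 had no call (SNRPB, SNRPE, HNRNPD and HNRNPF). Among all genes tested, 29.5% were higher and 28.4% lower. The following windows are those of the called snRNP and SR protein carriers, so that of HNRNPLL, at -23 from the start, is left out. The same letters lay within 250 bases of the RefSeq starts of genes that rose and of genes that fell. Capitals mark CCGGAAG or its reverse complement, and each window is written along the strand of its gene. The first 5 lines are snRNP genes and the last 2 are SR protein genes.
SNRPA1, chr15:101295344-101295372, minus strand, at -113 from the start: gcgcgccacgaCTTCCGGcaagaacgccc
SNRPD2, chr19:45692362-45692390, minus strand, at -63 from the start: ggtccatgcccCTTCCGGatgtaggcagg
SNRPG, chr2:70293491-70293519, minus strand, at -50 from the start: cttcatttcttCTTCCGGtccgaggtcgc
SNRPB2, chr20:16729993-16730021, plus strand, at -22 from the start: tggctacgttgCTTCCGGtgcctggctcc
SNRPC, chr6:34757283-34757311, plus strand, at -211 from the start: aatacgctcttCCGGAAGcaccgacaaac
SRSF4, chr1:29182124-29182150, minus strand, at -241 from the start: gtgcggacaCTTCCGGgggaggggcga
SRSF5, chr14:69767074-69767102, plus strand, at -57 from the start: caggggcgtccCCGGAAGtgacgtaggac
Positions count from the start of the RefSeq entry, and the windows of SNRPD2, SNRPG, SNRPB2 and SRSF5 lie inside the longer gene span of GENCODE v44. The SNRPC promoter holds the letters on both strands in overlapping positions, and SNRPB2 has a second match at -95 from the start.

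The E-box CACGTG, which MYC and its partner MAX bind among other factors, stood in 7 of 23 HNRNP promoters and in 0 of 11 SRSF and 0 of 11 SNRP promoters, against 7.4% of all promoters. The carriers were HNRNPA3, HNRNPD, HNRNPDL, HNRNPH2, HNRNPH3, HNRNPM and HNRNPUL1. Of these 1 fell, 1 rose and 5 had no call, beside 28.4% lower and 29.5% higher among all genes tested. The 2 with a call are shown, with the E-box in capitals.
HNRNPDL, chr4:82430364-82430393, minus strand, at -156 from the start: agaggcccggggCACGTGcagaaaggagcc
HNRNPUL1, chr19:41262568-41262597, plus strand, at 23 from the start: aacctctgggccCACGTGagtgtctgtccc
HNRNPDL was lower in siPVT1 and HNRNPUL1 was higher. Both windows lie inside the GENCODE v44 gene span, and that of HNRNPUL1 is also past the RefSeq start. MYC mRNA fell in the same libraries, with a log2 fold change of -1.01. The other letters searched were CCAAT (the CCAAT box, in 2, 15 and 4 SRSF, HNRNP and SNRP promoters, 35.7% of all), GGGCGG (the GC box, in 5, 16 and 6, 44.6% of all) and TATAAA (the TATA box, in 2, 3 and 1, 12% of all). A match describes the sequence and is not a measured binding site.

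The SR protein genes had the largest median change of the 3 families, and 6 of 11 went down. Their median log2 fold change was -0.35, and the median absolute change was 0.46, beside 0.001 and 0.51 for all genes tested. The 6 lower genes were SRSF1, SRSF8, SRSF6, SRSF3, SRSF7 and SRSF10, the 3 higher genes were SRSF5, SRSF9 and SRSF4, and SRSF2 and SRSF11 had no call.

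SRSF1, the SR protein first described as ASF/SF2 and a known oncoprotein, fell most in this family. It lies at chr17:58000919-58007346 on the minus strand (GRCh38, GENCODE v44). SRSF1 was measured at 15648, 14448 and 15852 normalized counts in the siControl libraries and at 6793, 8667 and 11875 in the siPVT1 libraries. All 3 siPVT1 libraries lay below all siControl libraries, and replicate 1 was far lower than replicate 3. SRSF1 had a log2 fold change of -0.75 (SE 0.17, adjusted p = 0.00641), and its fitted count fell by 40.5%.

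For SRSF8, siControl held 1098, 1043 and 1111 normalized counts and siPVT1 held 529, 689.8 and 825. SRSF8 derives from a copy of SRSF2, and its siPVT1 libraries were again lowest in replicate 1 and highest in replicate 3, below siControl. For SRSF8 the log2 fold change was -0.67 (SE 0.14, adjusted p = 0.00422). SRSF6, an SR protein related to SRSF4 and SRSF5, had 7097, 6479.7 and 7072 normalized counts in siControl and 3687, 4406 and 5865 in siPVT1. The log2 fold change of SRSF6 was -0.56 (SE 0.15, adjusted p = 0.0118), with groups that did not overlap.

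SRSF3 is the smallest SR protein, and SRSF7 is its close relative with a zinc knuckle. In siControl SRSF3 had 9551, 8550.3 and 9482 normalized counts, and in siPVT1 it had 5186, 6186 and 7747. The libraries gave SRSF7 4465, 3971 and 4465 normalized counts in siControl and 2596, 2949 and 3811 in siPVT1. Both genes were below siControl in every siPVT1 library, but SRSF7 in replicate 3 came close to the lowest siControl library. SRSF3 had a log2 fold change of -0.53 (SE 0.13, adjusted p = 0.00929), and that of SRSF7 was -0.46 (adjusted p = 0.0165). SRSF10, an SR-like protein that represses splicing when dephosphorylated, fell least of the 6, by a log2 fold change of -0.35 (adjusted p = 0.0306). The calls of SRSF7 and SRSF10 were lost without siControl replicate 1, without siControl replicate 3 and without siPVT1 replicate 2.

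SRSF5 had the highest level per length of the SRSF genes, at 4043 normalized counts per kilobase of canonical transcript in siControl and 5915 in siPVT1, and it rose. Normalized counts of SRSF5 were 6169, 5642 and 6335 in siControl and 8557, 9135 and 8857 in siPVT1. The groups were far apart and the siPVT1 libraries lay close together, unlike those of SRSF1. For SRSF5 the log2 fold change was 0.55 (SE 0.064, adjusted p = 0.00016). It lies at chr14:69726900-69772005 on the plus strand (GRCh38, GENCODE v44).

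SRSF9, a short SR protein related to SRSF1, and SRSF4, a long one related to SRSF5 and SRSF6, also rose. SRSF9 was measured at 3804, 3236 and 3920.1 normalized counts in the siControl libraries and at 4759, 4789 and 5524 in the siPVT1 libraries. For SRSF4, siControl held 1942, 1945 and 1929 normalized counts and siPVT1 held 2561, 2493 and 2648. In both genes every siPVT1 library exceeded every siControl library. The log2 fold change of SRSF9 was 0.46 (SE 0.093, adjusted p = 0.00308), and that of SRSF4 was 0.41 (adjusted p = 0.000399). Exons of SRSF9 overlap those of GATC on the opposite strand over 43.6% of their length, and GATC fell, with a log2 fold change of -0.40. The strand setting of the counting is not given in the sources used here, so it is not known whether the counts kept reads of such a pair apart. The same holds for SRSF2 and MFSD11 (27.7% of SRSF2 exon bases) and for HNRNPA3 and NFE2L2 (53.6% of HNRNPA3 exon bases). HNRNPU likewise shares 15.6% of its exon bases with COX20 on the opposite strand. Other members share exon bases on the same strand, which a strand setting does not separate. SRSF1 shares 32.7% with the protein-coding entry ENSG00000266086, and SRSF6 shares 13.4% with ENSG00000288000. HNRNPH2 shares 15.8% with RPL36A-HNRNPH2.

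SRSF2, known as SC35 and used as a marker of nuclear speckles, had the largest adjusted p of the family. In siControl SRSF2 had 6682, 6239.9 and 6843 normalized counts, and in siPVT1 it had 4074, 5190.4 and 7627. Replicates 1 and 2 lay below siControl and replicate 3 lay above it, so the groups overlapped. SRSF2 had a log2 fold change of -0.23 (SE 0.19, adjusted p = 0.352). Without siPVT1 replicate 3 its log2 fold change was -0.52 and it was called lower. SRSF11 moved by 0.07 on the log2 scale (adjusted p = 0.336), a difference whose groups did not overlap, as in 65.6% of all genes tested, but that missed the threshold.

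**Figure D1:**
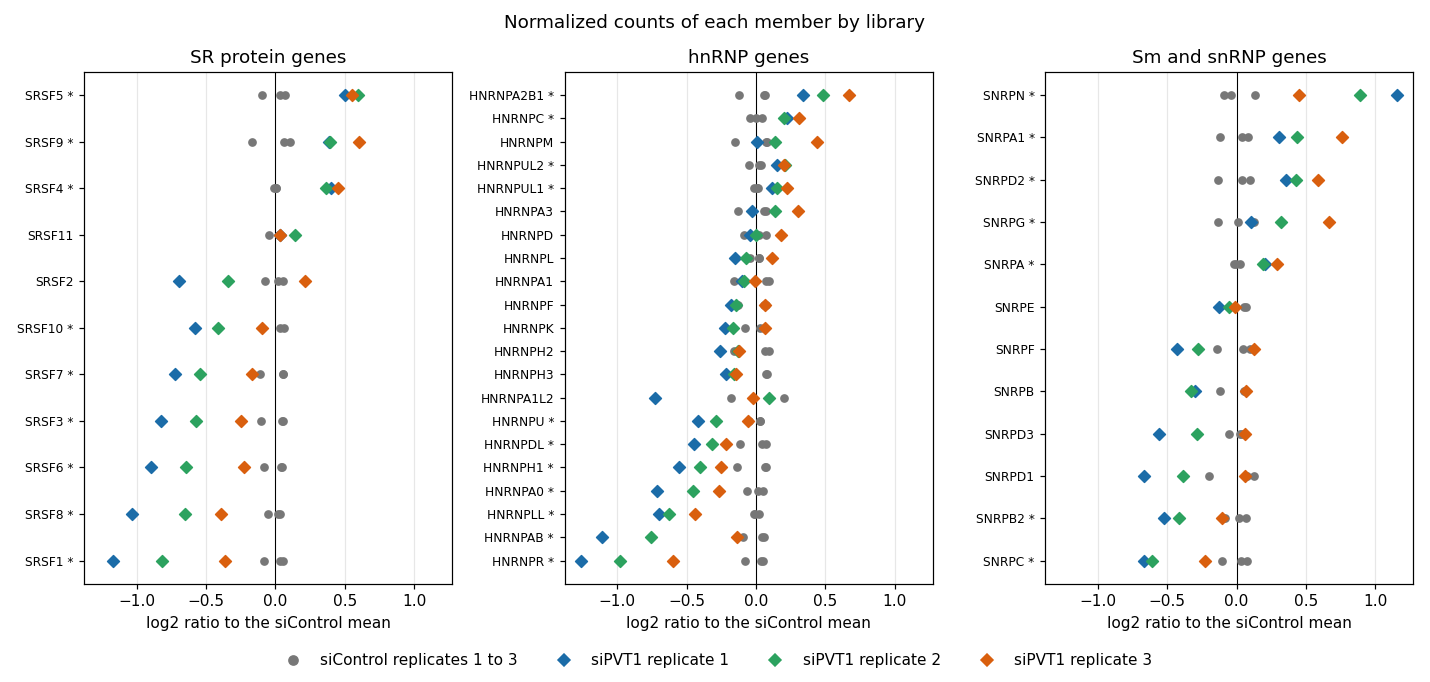
Log2 ratio of each tested member's normalized count to the siControl mean (x axis) by gene (y axis), in 3 panels for the SRSF, HNRNP and SNRP genes, with grey points for siControl and diamonds for siPVT1 replicates 1, 2 and 3. An asterisk marks adjusted p under 0.05. The diamonds of replicate 3 lie to the right of those of replicate 1 in nearly all genes, and SNRPN is the clearest exception.

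The hnRNP genes had the smallest median absolute log2 fold change of the 3 families, 0.19, beside 0.51 for all genes tested. No call was made for 10 of 21, as for 8001 of all 19008 genes. Their median log2 fold change was -0.10, which became -0.21 without siPVT1 replicate 3 and -0.06 without siPVT1 replicate 1. The 7 lower genes were HNRNPR, HNRNPAB, HNRNPLL, HNRNPA0, HNRNPH1, HNRNPDL and HNRNPU, and the 4 higher genes were HNRNPA2B1, HNRNPC, HNRNPUL2 and HNRNPUL1.

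HNRNPR, a relative of SYNCRIP that takes part in mRNA transport, fell most of all 44 members. It lies at chr1:23303771-23344336 on the minus strand (GRCh38, GENCODE v44). The libraries gave HNRNPR 5782, 5326 and 5832 normalized counts in siControl and 2359, 2855 and 3728 in siPVT1. The highest siPVT1 library was well below the lowest siControl library. For HNRNPR the log2 fold change was -0.92 (SE 0.15, adjusted p = 0.000903), and its fitted count fell by 47.2%. Without siPVT1 replicate 3 the value was -1.13 and HNRNPR passed the 2-fold threshold as well.

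HNRNPLL, known for regulating CD45 exons in lymphocytes, was less abundant. Normalized counts of HNRNPLL were 959, 978 and 951 in siControl and 594, 623 and 709 in siPVT1. HNRNPA0 was measured at 3881, 3673 and 3972 normalized counts in the siControl libraries and at 2345, 2803 and 3184 in the siPVT1 libraries. HNRNPA0 binds AU-rich elements in mRNAs, and both genes were lower in every siPVT1 library. The log2 fold change of HNRNPLL was -0.58 (SE 0.083, adjusted p = 0.000471), and that of HNRNPA0 was -0.47 (adjusted p = 0.00544).

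HNRNPH1 binds runs of G beside splice sites, and its paralog HNRNPH2 is encoded on the X chromosome. For HNRNPH1, siControl held 18105, 15610.4 and 17961 normalized counts and siPVT1 held 11701, 13016 and 14451. HNRNPH1 fell in every siPVT1 library without overlap (log2 fold change -0.40, SE 0.093, adjusted p = 0.00625). HNRNPH2 had a log2 fold change of -0.17 (adjusted p = 0.102) with overlapping groups. Within libraries, the count of HNRNPH2 relative to HNRNPH1 was 0.188, 0.187 and 0.194 in siControl and 0.233, 0.229 and 0.208 in siPVT1. Reads of such near-identical paralogs were divided by estimation, which leaves both values uncertain.

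In siControl HNRNPDL had 6834, 5991 and 6692 normalized counts, and in siPVT1 it had 4758, 5213 and 5578. HNRNPDL, a relative of the mRNA decay factor HNRNPD (AUF1), was lower without overlap (log2 fold change -0.33, SE 0.08, adjusted p = 0.0078). HNRNPD itself had a log2 fold change of 0.05 (adjusted p = 0.626). HNRNPAB and HNRNPU, the scaffold attachment factor, had log2 fold changes of -0.61 and -0.25 (adjusted p = 0.0362 and 0.0457). The libraries gave HNRNPAB 6522, 5874 and 6468 normalized counts in siControl and 2911, 3726 and 5722 in siPVT1. The siPVT1 libraries of HNRNPAB differed from each other by more than the group means did, and replicate 3 came close to siControl. Both calls were lost whenever 1 library other than siPVT1 replicate 3 was left out, and without replicate 3 HNRNPAB had a log2 fold change of -0.94.

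HNRNPA2B1, a packaging protein that also reads RNA modifications, rose most of the hnRNP genes. Normalized counts of HNRNPA2B1 were 24045, 21075 and 23913 in siControl and 28991, 32094 and 36609 in siPVT1. No siPVT1 library was as low as any siControl library, and replicate 3 was the highest. HNRNPA2B1 had a log2 fold change of 0.50 (SE 0.095, adjusted p = 0.00226), a gain of 41.5%. Its partner HNRNPA1 had 32055, 26929.5 and 31567 in siControl and 27987, 28331 and 29870.3 in siPVT1, with a log2 fold change of -0.07 (adjusted p = 0.46) and overlapping groups. HNRNPA1L2, an intronless copy of HNRNPA1, was counted at 0.00480 to 0.00839 of the count of HNRNPA1 in the 6 libraries, and this ratio did not separate the groups (exact permutation p = 0.7).

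HNRNPC was measured at 16367, 15435 and 15879 normalized counts in the siControl libraries and at 18545, 18239 and 19684 in the siPVT1 libraries. HNRNPC, which binds uridine tracts and keeps Alu sequences out of mRNAs, was higher in every siPVT1 library by a small margin (log2 fold change 0.24, SE 0.057, adjusted p = 0.00664). HNRNPUL1 and HNRNPUL2, paralogs of HNRNPU, had log2 fold changes of 0.16 and 0.19 (adjusted p = 0.032 and 0.0196). These 3 calls were lost with scaling by the total count, where HNRNPC was at 0.09 on the log2 scale, HNRNPUL1 at 0.01 and HNRNPUL2 at 0.04. The calls of HNRNPUL1 and HNRNPUL2 were also lost without siControl replicate 1, siControl replicate 3 or siPVT1 replicate 2, and that of HNRNPUL1 without siControl replicate 2. HNRNPUL2 also shares 44.3% of its exon bases on the same strand with the readthrough gene HNRNPUL2-BSCL2, which had a log2 fold change of 0.28.

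HNRNPK, which binds C-rich RNA, had the highest level per length of all members in siControl, 8995 normalized counts per kilobase, and no call (adjusted p = 0.321). In siPVT1 it was at 8364 per kilobase, below HNRNPA2B1 at 8976. HNRNPL, a repressor that binds CA repeats, had the largest adjusted p of the family, 0.75, at a log2 fold change of -0.03. For HNRNPL, siControl held 8932, 8557 and 8948 normalized counts and siPVT1 held 7929, 8399 and 9543. Its groups overlapped. The log2 fold changes of the other uncalled hnRNP genes HNRNPH3, HNRNPF, HNRNPA3 and HNRNPM ran from -0.18 to 0.20.

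The snRNP genes split within the particles they serve. Their median log2 fold change was -0.12 and the median absolute change 0.32, beside 0.51 for all genes tested. Of 12 genes 5 were higher and 2 lower, beside 29.5% higher and 28.4% lower among all genes tested. Calls in both directions are thus not particular to this family. The SNRP median became -0.22 without siPVT1 replicate 3 and -0.06 without siPVT1 replicate 1. In U1, whose snRNA pairs with the 5′ splice site, SNRPA (the A protein of U1) rose and SNRPC (its C protein) fell. In U2, whose snRNA pairs with the branch point, SNRPA1 (A′ protein) rose and its binding partner SNRPB2 (B″ protein) fell. In the Sm ring SNRPD2 and SNRPG rose and SNRPB, SNRPD1, SNRPD3, SNRPE and SNRPF had no call.

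In siControl SNRPC had 1641, 1455 and 1596 normalized counts, and in siPVT1 it had 985, 1024 and 1335. The siPVT1 libraries were all lower, and replicate 3 lay nearest to siControl. For SNRPC the log2 fold change was -0.49 (SE 0.12, adjusted p = 0.00794). The libraries gave SNRPA 1566, 1529.5 and 1517 normalized counts in siControl and 1775, 1757 and 1881 in siPVT1. SNRPA was higher in each siPVT1 library by a small but even margin (log2 fold change 0.23, SE 0.06, adjusted p = 0.0105), and this call was lost with scaling by the total count and without siControl replicate 3.

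Normalized counts of SNRPA1 were 1125, 1004 and 1155 in siControl and 1347, 1474 and 1848 in siPVT1. SNRPB2 was measured at 2083, 1943 and 2162 normalized counts in the siControl libraries and at 1434, 1545 and 1916 in the siPVT1 libraries. SNRPA1 was higher in all siPVT1 libraries and SNRPB2 lower in all of them, though SNRPB2 in replicate 3 nearly reached the lowest siControl library. The log2 fold change of SNRPA1 was 0.51 (SE 0.12, adjusted p = 0.00687), and that of SNRPB2 was -0.34 (adjusted p = 0.0274), a call lost without siControl replicate 1, siControl replicate 3 or siPVT1 replicate 2.

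SNRPD2, an Sm protein that pairs with SNRPD1 before the ring closes, had the highest level per length of the SNRP genes, 5143 normalized counts per kilobase in siControl and 7058 in siPVT1. For SNRPD2, siControl held 2825, 2408 and 2713 normalized counts and siPVT1 held 3374, 3560.2 and 3969.7. No siPVT1 library overlapped siControl. SNRPD2 had a log2 fold change of 0.46 (SE 0.086, adjusted p = 0.00213). SNRPD1 went from 2894, 2316 and 2804 to 1676, 2035 and 2772, with a log2 fold change of -0.30 (adjusted p = 0.165). Its replicates 1 and 2 were below siControl and replicate 3 was within it. The other uncalled Sm genes, SNRPD3, SNRPB, SNRPF and SNRPE, had log2 fold changes from -0.24 to -0.07, and SNRPE had the largest adjusted p of the family, 0.494.

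In siControl SNRPG had 1995, 1662 and 1839.8 normalized counts, and in siPVT1 it had 1966, 2283 and 2890.1. SNRPG was called higher although replicate 1 overlapped siControl (log2 fold change 0.38, SE 0.14, adjusted p = 0.0435), and the call was lost in 6 of 12 alternatives, namely scaling by the total count and leaving out any single library but siPVT1 replicate 1. Its value rested most on replicate 3, and was 0.20 on the log2 scale when that library was left out.

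SNRPN encodes SmN, which replaces the SNRPB product in the Sm ring of neurons and is expressed from the paternal allele. It lies at chr15:24823637-24978723 on the plus strand (GRCh38, GENCODE v44). The libraries gave SNRPN 275, 265 and 309.6 normalized counts in siControl and 629, 522 and 385 in siPVT1. All siPVT1 libraries were higher than siControl, and here replicate 1 was the highest and replicate 3 the lowest. For SNRPN the log2 fold change was 0.85 (SE 0.17, adjusted p = 0.00302), a gain of 80.4%, and without replicate 3 the value was 1.01. SNRPN remained scarce, at 349 normalized counts per kilobase in siPVT1, against 2396 for SNRPB. SNHG14, a non-coding transcript that shares 4.1% of the SNRPN exon bases on the same strand, rose as well, with a log2 fold change of 0.71. SNURF shares 23.9% of the SNRPN exon bases on the same strand and stayed at or below 9.4 normalized counts. The protein-coding entry ENSG00000214265 shares 15.9% on that strand and has no count under that name.

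**Figure D2:**
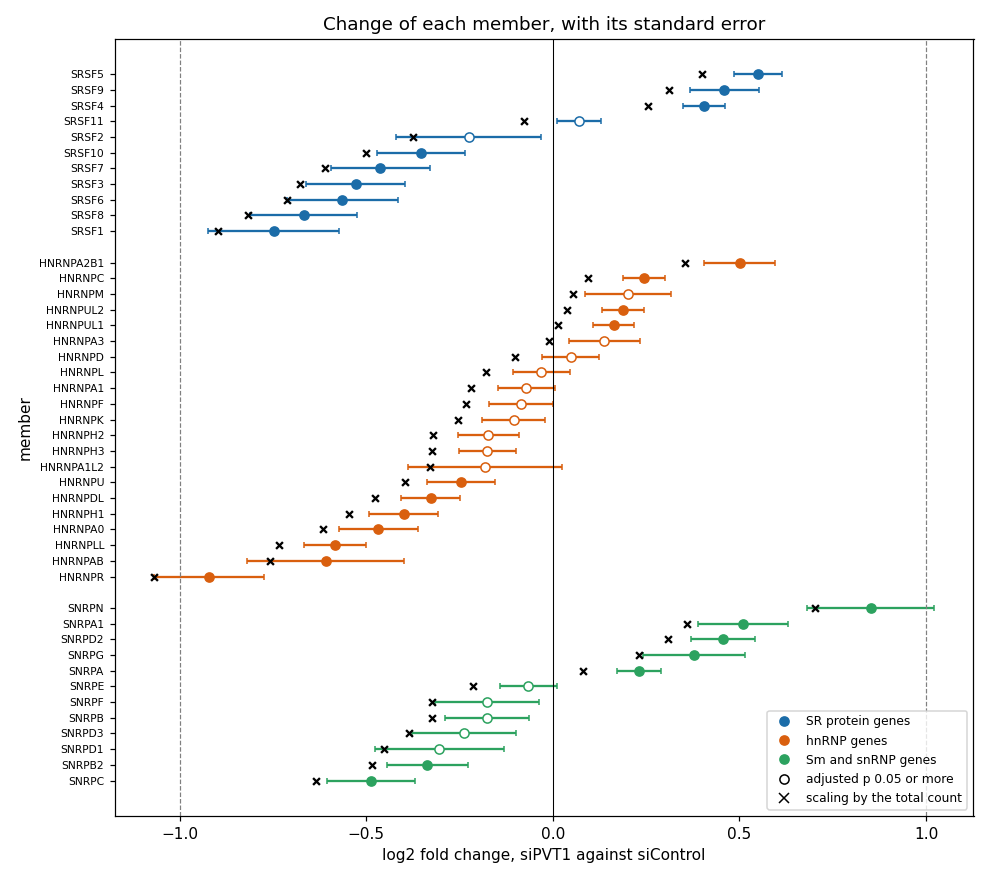
Log2 fold change of each tested member in siPVT1 against siControl (x axis) with its standard error, by gene (y axis) and family (colour), filled where adjusted p is under 0.05. Crosses give the value with scaling by the total count, and dashed lines mark a 2-fold change, which no filled point reaches.

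The families were compared by counts and medians, since genes are not replicates of a condition, and no test of the difference was made. A call was made for 9 of 11 SRSF genes, 11 of 21 HNRNP genes and 7 of 12 SNRP genes, beside 57.9% of all genes. The SRSF median lay 0.25 below the HNRNP median and 0.23 below the SNRP median on the log2 scale, with ranges of -0.32 to -0.20 and -0.30 to -0.20 when each library was left out in turn. The SNRP and HNRNP medians differed by -0.02. Within single siPVT1 libraries the SRSF median of log2 ratios to siControl was -0.69, -0.42 and -0.10 in replicates 1, 2 and 3. It was -0.22, -0.13 and -0.01 for HNRNP genes and -0.21, -0.17 and 0.10 for SNRP genes. The SRSF median was thus the lowest of the 3 in every siPVT1 library, by a smaller amount in replicate 3 than in replicates 1 and 2.

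Summed over members, the families differed less than single genes did. SRSF genes together held 66121 ± 3426 normalized counts in siControl and 56503 ± 8661 in siPVT1 (SD, n = 3). HNRNP genes held 223227 ± 13186 and 219357 ± 20452, and SNRP genes held 21222 ± 1464 and 21468 ± 3031. These sums overlapped between the groups in all 3 families. As a share of the total count, SRSF genes did not overlap, with 0.2174% to 0.2295% in siControl and 0.1479% to 0.2001% in siPVT1.

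The order of the siPVT1 libraries was shared by most members. Replicate 1 was the lowest siPVT1 library and replicate 3 the highest in 35 of 44 members (79.5%), against 28.9% of all genes tested. Replicate 3 was the highest of the 3 in 39 members (88.6%, against 41.3% of all genes). The median log2 ratio of replicate 3 to replicate 1 was 0.55 for SRSF, 0.27 for HNRNP and 0.43 for SNRP genes, and 0 for all genes. Between siControl replicates 3 and 1 it ran from -0.03 to 0.0002 over the families. All 15 lower members had replicate 3 as the siPVT1 library nearest to siControl, as had 59.6% of all lower genes. Among the 12 higher members this was so for 1, SNRPN, against 58.5% of all higher genes. In the lower members replicate 3 thus moved least, and in the higher members it mostly moved most.

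Ratios of 2 members within a library need no scaling, and 12 such ratios were taken. The paralog pairs were chosen for their shared sequence, and the other pairs were chosen after the changes were seen, so they only describe the sizes. The ratio of SRSF5 to SRSF1 was 0.394, 0.391 and 0.400 in siControl and 1.26, 1.05 and 0.746 in siPVT1. The ratio of SNRPA1 to SNRPB2 was 0.540, 0.517 and 0.534 in siControl and 0.940, 0.954 and 0.964 in siPVT1. The first ratio varied widely over the siPVT1 libraries and the second hardly at all, and neither overlapped between groups. HNRNPA2B1 relative to HNRNPA1 went from 0.763 ± 0.017 to 1.13 ± 0.095, HNRNPC relative to HNRNPR from 2.82 ± 0.088 to 6.51 ± 1.29, and SNRPD2 relative to SNRPD1 from 0.994 ± 0.039 to 1.73 ± 0.29 (SD, n = 3). SNRPN relative to SNRPB went from 0.0903, 0.0985 and 0.101 to 0.264, 0.224 and 0.125, so replicate 3 was nearest to siControl. SRSF8 relative to its parent SRSF2 went the other way, from 0.165 ± 0.0024 to 0.124 ± 0.013. The groups were separate in 11 of the 12 ratios. Pairs chosen by their changes could be foreseen to separate, so this count is not a test. Among all single genes tested, the groups did not overlap in 65.6%. Each of the 11 ratios had a two-sided exact permutation p of 0.1 (0.109 after Benjamini-Hochberg adjustment). The smallest p that 3 against 3 libraries allow is 0.1.

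**Figure D3:**
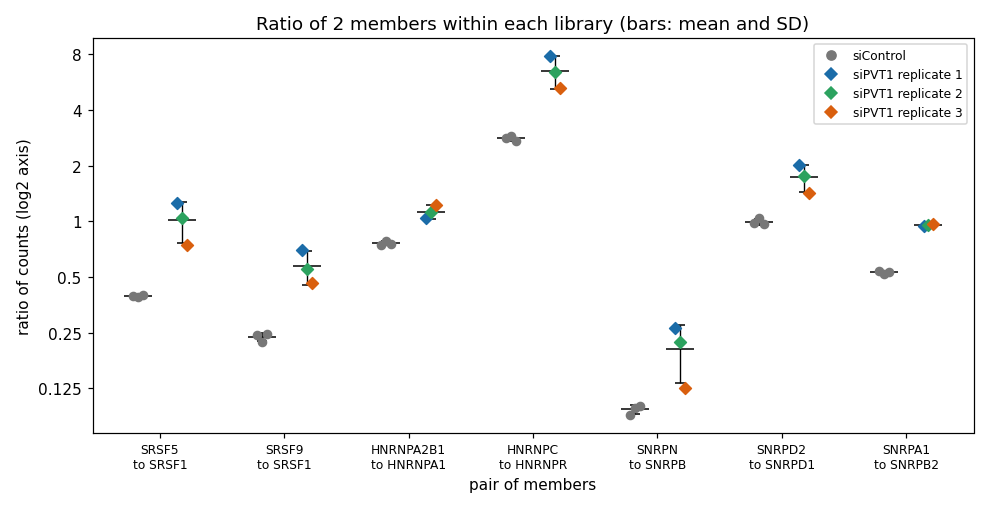
Ratio of the counts of 2 members within each library (y axis, log2 axis) for 7 pairs (x axis), with grey points for siControl, diamonds for siPVT1 replicates 1, 2 and 3, and bars for mean and SD. SRSF5 to SRSF1 spreads over the siPVT1 libraries, while SNRPA1 to SNRPB2 sits at 0.940 to 0.964 in all 3.

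The members differ in features that the symbol rule did not use. In GENCODE v44, NMD transcripts are annotated for all 12 SRSF genes, 14 of 25 HNRNP genes and 3 of 12 SNRP genes. Such transcripts were annotated for 8 of the 12 higher members, 11 of the 15 lower members and 9 of the 17 with no call. Counts per gene sum over transcripts, so coding and poison-exon isoforms cannot be told apart. The canonical transcript had a median of 1482 bases in the higher members, 2477 in those with no call and 4307 in the lower members. Across genes, which are not independent, Spearman's rho of the log2 fold change with canonical length was -0.79 in 11 SRSF genes, -0.04 in 21 HNRNP genes and -0.35 in 12 SNRP genes, all read from the same 6 libraries.

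The other proteins of the splicing pathway were read from 7 lists, which were chosen with earlier results of these data known. The counts of these lists stand beside 29.5% higher and 28.4% lower among all genes tested. Factors of the exon junction complex, which marks spliced junctions, and of NMD went down: 12 of 15 tested were lower and 0 were higher by edgeR (13 of 15 had an unadjusted p under 0.05, against 11873 of 19008 genes), with a median log2 fold change of -0.46. UPF3B and UPF2, which join the junction complex to the decay helicase, had log2 fold changes of -0.79 and -0.72. DESeq2 called 13 lower and 0 higher, and no alternative called any of them higher.

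Of the snRNP assembly factors, 11 of 17 were lower and 2 were higher, with a median of -0.55. With scaling by the total count 14 were lower and 1 was higher, with a median of -0.70. Without siPVT1 replicate 3, 14 were lower. The higher count was also 1 without siControl replicate 1, siControl replicate 2 or siPVT1 replicate 2. Normalized counts of GEMIN5 were 2727, 2675 and 2709 in siControl and 809.7, 822 and 1039 in siPVT1. WDR77 was measured at 2343, 2243 and 2439 normalized counts in the siControl libraries and at 559, 728 and 1068 in the siPVT1 libraries. GEMIN5 recognises snRNAs for the SMN complex and WDR77 helps to methylate Sm proteins, and both fell far beyond the spread, with log2 fold changes of -1.60 and -1.57. These changes exceeded that of any Sm gene. SNUPN, the import adaptor of snRNPs, rose by 0.63 on the log2 scale, and GEMIN8 by 0.49.

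Of 31 other proteins of the U1, U2 and tri-snRNP particles and of the minor spliceosome, 15 were lower and 4 higher, with a median of -0.23, but 0 were higher with scaling by the total count and 2 without siControl replicate 1, siControl replicate 2 or siPVT1 replicate 2. SF3A2 of the U2 particle (-0.96) and SNRNP25 of the minor spliceosome (-0.78) fell most, and SNRNP70 (0.24), which binds U1 snRNA, and SF3B6 (0.23) rose most on the log2 scale. Of 10 LSM genes 3 were higher and 2 lower, with a median of 0.05, counts near the shares over all genes. The median became -0.09 with scaling by the total count, where 4 were lower, and -0.05 without siPVT1 replicate 3, where 5 were lower, and it was -0.02 without siControl replicate 2, while 1 was lower without siControl replicate 3. LSM11 of the U7 snRNP rose (0.57), as did LSM4 (0.54), while LSM10 (-0.46) and LSM1 (-0.42) fell.

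Of the kinases and importins of SR proteins, 3 of 11 were higher and 4 lower, counts near the shares over all genes. For CLK3, siControl held 756, 664 and 744 normalized counts and siPVT1 held 1965, 1741 and 1781. CLK3, a kinase of the SR domain, rose without overlap (1.34 on the log2 scale), as did CLK2 (0.49), whereas TNPO1 (-0.56), an importin that carries HNRNPA1 into the nucleus, and PRPF4B (-0.35) fell. Of 19 SR-related proteins 4 were higher and 6 lower, from SCAF1 (-1.18) and TRA2A (-0.60) to LUC7L2 (0.32) and SON (0.35), with a median of -0.13. Without siPVT1 replicate 3, 12 of these were lower, as with scaling by the total count, where 1 was higher, and without siControl replicate 2 the higher count was also 1, against 2 without siControl replicate 1 or siPVT1 replicate 2. Of 38 other splicing regulators 9 were higher (2 with scaling by the total count, 5 without siControl replicate 2 or siPVT1 replicate 2) and 17 lower, with a median of -0.19. Among the genes called in this list, MBNL3 (-1.35) and KHSRP (-0.77) fell most and CELF2 (1.31) and RBFOX2 (0.63) rose most. CELF2, however, had no more than 3.8 normalized counts in a siControl library and 10 in a siPVT1 library.

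**Figure D4:**
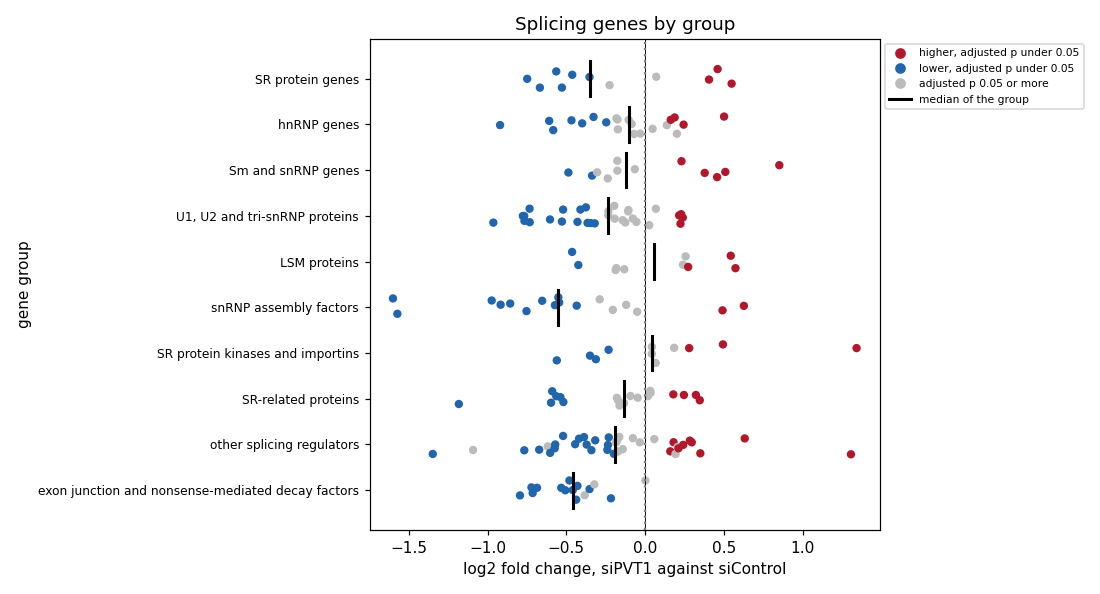
Log2 fold change in siPVT1 against siControl (x axis) of each tested gene in the 3 families and 7 other lists of splicing genes (y axis), coloured by call, with black bars for medians. Exon junction and NMD factors and snRNP assembly factors have the lowest medians, -0.46 and -0.55.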

How the data were processed

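RNA-seq libraries were made with the KAPA mRNA HyperPrep kit from SK-OV3 cells, 3 per group, and sequenced as 75-base single-end reads. Per the labels and the methods, the authors aligned the reads with STAR 2.7.3a to the GENCODE transcriptome of GRCh38 and quantified them with Salmon 0.14.1. The values deposited are estimated counts per gene symbol, written as whole numbers without normalization. The strand setting, and how transcripts were summed to symbols, are not given in the sources used here.

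The counts were scaled by TMM and tested with edgeR 4.0.16 (quasi-likelihood test, R 4.3.3) over the 19008 genes that reached 5 normalized counts in 3 or more libraries, with Benjamini-Hochberg adjustment. Normalized counts are counts divided by the library's effective size relative to the geometric mean of the 6 libraries. Standard errors were taken as the size of the log2 fold change over the root of the F statistic. A call is an adjusted p under 0.05. The study's own filter was read as this 5-count minimum. Total counts of 28383171 to 35059576 set the counting precision. Levels per length use the canonical transcript of GENCODE v44, a later annotation of the same build. Scripts were run on simulated counts with a single dispersion and few changed genes, unlike these data. That run checks the code and not the calls made here.

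Alternatives were DESeq2 1.42.0, its size factors, total-count scaling, no filter, filterByExpr, the replicate number as a block and each library left out. Counts for the 7 other splicing lists under these were added after the data were seen. The members and all lists were chosen with earlier results of these data known. Genes named by rule were, per family, up to 5 higher and up to 5 lower with the smallest p among those called, those past both thresholds, the highest per kilobase, the one with the largest adjusted p, paralog pairs, and the 2 lowest and 2 highest called genes of each other list. Other members were named after their values were seen, so that each is accounted for. Deposited fold changes were not used, and protein sequences were not used here.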

Additional observations from a re-analysis of the deposited data

How the results depend on the processing

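Of 528 values of single members under 12 alternatives, 457 kept their direction and their side of the threshold, 41 lost the call, 24 gained one and 6 changed sign. The calls held under every alternative for 7 of 12 higher members (HNRNPA2B1, SNRPA1, SNRPD2, SNRPN, SRSF4, SRSF5 and SRSF9) and for 10 of 15 lower members (HNRNPA0, HNRNPDL, HNRNPH1, HNRNPLL, HNRNPR, SNRPC, SRSF1, SRSF3, SRSF6 and SRSF8). With scaling by the total count, 1 HNRNP gene was higher and 12 were lower, 3 SNRP genes were higher and 6 lower, 1 member (HNRNPR) was lower past both thresholds, and the HNRNP median was -0.25. Under it HNRNPA3 (-0.0101), HNRNPD (-0.101) and SRSF11 (-0.0787) changed sign, none with a call, since this scaling lowers every gene by nearly the same amount. Without a filter on low counts 2 HNRNP genes were higher, HNRNPUL1 and HNRNPUL2 being lost.

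Same-numbered siControl and siPVT1 libraries deviated together with correlations of only -0.03, 0.02 and 0.001. Deviations from means of 3 libraries cannot decide whether the samples were paired, and the labels do not state it. With the replicate number as a block, 2 HNRNP genes were higher, HNRNPUL1 and HNRNPUL2 losing their calls, 10 members in all were higher and 15 were lower, and no other call changed.

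With each library left out, HNRNP genes ranged from 2 to 5 higher and from 5 to 12 lower, SNRP genes from 3 to 5 higher and from 1 to 6 lower, and members past both thresholds from 0 to 1 higher and from 0 to 2 lower. The upper ends for lower genes and for both thresholds came without siPVT1 replicate 3, where SNRPN, HNRNPR and SRSF1 passed both. Without siPVT1 replicate 3 the calls gained were HNRNPF, HNRNPH2, HNRNPH3, HNRNPK, HNRNPL, SNRPB, SNRPD1, SNRPD3, SNRPF and SRSF2, all lower. That setting called 11944 of the 18556 genes it tested in either direction, and shares by direction are not given here. The lower ends came without siControl replicate 1, siControl replicate 3 or siPVT1 replicate 2, and for lower HNRNP genes also without siPVT1 replicate 1. HNRNPH2 and HNRNPH3 gained a call without siControl replicate 2, and HNRNPM without siPVT1 replicate 1. The log2 fold changes of 3 uncalled members changed sign, HNRNPA1L2 (-0.347 to 0.0136) and HNRNPL (-0.126 to 0.0116) without siPVT1 replicate 1 and HNRNPD (-0.0394 to 0.0776) without siPVT1 replicate 3. The cause of these changes was not tested. With 3 libraries a group, members under 5 counts could not be compared at this depth.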
